A study of Homo sapiens with 21 samples.

Results

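The collagen genes described here are the 43 genes whose listed symbol, or the current symbol it leads to, has the form COL, digits, A, digits. They were taken from the raw tables of 21 human cancer cell lines, which list 37879 genes for hepatocellular carcinoma (HCC) lines and 34601 for lung and pancreas lines. The lung and pancreas table lists all 43 and the tables of the HCC lines hold 40 of them. COL6A5, listed there under its older name COL29A1, COL6A6 and COL28A1 appear in the lung and pancreas table only. Expression was measured once per line on Illumina BeadChip arrays from biotin-labelled RNA of untreated cells grown in serum-containing medium. The 11 HCC lines were SNU-423, SNU-475, SNU-739, SNU-886, HLF, Huh-1, Hep3B, JHH-4, JHH-6, PLC/PRF/5 and SK-HEP-1. The 5 lung cancer lines were Calu-1, Calu-3, Malme-3M, NCI-H1299 and NCI-H596. The 5 pancreatic cancer lines were AsPC-1, BxPC-3, Capan-1, Capan-2 and MIA-PaCa-2. No line was treated or engineered, and the labels name no genotype. Malme-3M is a known melanoma line, and SK-HEP-1 is known for endothelial traits.

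Collagens are extracellular matrix proteins built from 3 chains wound into a triple helix. Fibrillar collagens such as types I, III and V form the tensile fibres of connective tissue, and type IV forms the network of basement membranes on which epithelial and endothelial cells rest. Type VI forms beaded microfilaments around cells, the FACIT collagens sit on the surface of fibrils, and the transmembrane collagens are anchored in the cell membrane. In liver, fibrillar collagen is known mainly as the product of activated stellate cells, and in tumours as that of stromal fibroblasts.

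Levels are log2 intensities after background correction and quantile normalization, which set the arrays of a set to 1 common distribution. The arrays of the HCC lines had another design than those of the lung and pancreas lines, so each set was normalized on its own unless stated otherwise. SNU-475 came in a raw table of its own and was normalized with the other 10 HCC lines, which share a common raw table. Levels of the 2 sets are compared only where all 21 lines were normalized together, and there the tissue cannot be told apart from the design. A gene is called detected in a line where the deposited detection p-value, which sets its signal against the negative controls of the array, is under 0.05. Every p-value rests on the spread between lines, with 1 array per line. Probes differ in brightness, so levels are compared between lines and not between genes.

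The tissue labels were checked against marker genes. All 8 hepatocyte markers were detected in Huh-1 and PLC/PRF/5, and 0 of them in HLF and SNU-739. Of 5 markers of lung epithelium, NKX2-1, SFTPB, SFTPC and NAPSA were detected in none of the 5 lung lines. The fifth, SCGB1A1, was detected in NCI-H596 at 6.55 and in no other lung line. In Capan-2 3 of 8 epithelial markers (CDH1, EPCAM and CLDN4) were detected, and the keratins KRT8, KRT18 and KRT19 were not. Of 8 mesenchymal markers 5 were detected there, among them TWIST1, THY1 and ZEB2. The pancreatic ductal markers PDX1 and MUC1 were detected in Capan-2 as well, as 2 of 6. In Malme-3M 7 of 8 epithelial markers were detected and 4 of 5 melanocyte markers (MLANA, TYR, DCT and MITF) were not. PMEL was detected there at 7.39, and MITF stood at 8.24 without passing the detection threshold. In Calu-3 4 of 8 epithelial markers (EPCAM, KRT8, KRT18 and KRT19) were detected and CDH1 was not. CDH1 was also not detected in NCI-H1299, Calu-1 and MIA-PaCa-2. Of these lines only Calu-3 is among those left out together below. Hep3B stood apart from every other line: its highest correlation with any line was 0.65, against at least 0.88 for the other lines. In Hep3B 0 of 8 epithelial markers passed the detection threshold, although EPCAM stood at 13.70, the highest level among HCC lines. Of all genes, 24.9% were detected in Hep3B. The other HCC lines had 32.6% to 35.1% of genes detected and the lung and pancreas lines 40.8% to 43.7%. Counts of collagens passing each comparison are given below with and without Capan-2, Malme-3M and Calu-3, and in the HCC comparison Hep3B. The differences of several collagens are given in the same way.

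Chains of type IV collagen are encoded in head-to-head pairs, and the stretches between their start sites are shown because the levels of both partners are set side by side below. The sequences are those of RefSeq on GRCh38.p14, on the plus strand, and stop short of both transcripts. Capitals mark matches to the CCAAT box (CCAAT), the GC box (GGGCGG) and the E-box CACCTG, on either strand. No motif match overlaps another.
COL4A1 and COL4A2, chr13:110307158-110307283, all 126 bases between the start sites: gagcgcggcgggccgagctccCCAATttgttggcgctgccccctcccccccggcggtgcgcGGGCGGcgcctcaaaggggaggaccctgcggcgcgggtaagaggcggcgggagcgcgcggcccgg
COL4A4 and COL4A3, chr2:227164374-227164623, the 250 bases before the COL4A3 start out of 418 between the start sites: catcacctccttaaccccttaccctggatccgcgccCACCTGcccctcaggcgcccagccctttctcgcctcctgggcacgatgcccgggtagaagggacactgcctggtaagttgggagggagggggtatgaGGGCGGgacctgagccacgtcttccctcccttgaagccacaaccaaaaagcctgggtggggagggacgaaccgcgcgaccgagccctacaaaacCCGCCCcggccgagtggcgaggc
COL4A6 and COL4A5, chrX:108439588-108439837, the 250 bases before the COL4A5 start out of 379 between the start sites: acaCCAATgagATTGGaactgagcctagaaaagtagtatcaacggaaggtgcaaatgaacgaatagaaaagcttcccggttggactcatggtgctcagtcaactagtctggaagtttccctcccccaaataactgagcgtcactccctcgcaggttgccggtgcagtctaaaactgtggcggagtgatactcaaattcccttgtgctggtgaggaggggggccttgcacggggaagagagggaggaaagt

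The stretch between COL4A1 and COL4A2 holds 1 CCAAT box and 1 GC box and is 80.2% G and C. The COL4A3 stretch holds 2 GC boxes and 1 CACCTG, and the COL4A5 stretch 2 CCAAT boxes. Over 43 windows of 300 bases around the start sites of 31 collagen genes, CCAAT was present in 32.6% of windows, against 34.6% of 35116 windows of all genes. GGGCGG was present in 55.8% of collagen windows and 45.0% of all windows. The TATA box TATAAA was present in 18.6% of collagen windows and 11.5% of all windows. CACCTG was present in 11.6% of collagen windows and 20.6% of all windows. A match is a description of the letters only.

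Of the collagen genes, 35 were detected in at least 1 HCC line and 29 in at least 1 lung or pancreas line. COL5A3, COL6A5, COL6A6, COL10A1, COL19A1, COL25A1 and COL28A1 were detected in none of the lines they were listed for. By class, 10 of 11 fibrillar, 6 of 6 basement membrane, 3 of 3 listed beaded-filament, 8 of 10 FACIT and 3 of 4 transmembrane genes were detected in at least 1 HCC line. Over the 10 lung and pancreas lines the counts were 9 of 11, 4 of 6, 3 of 5, 6 of 10 and 3 of 4. The number of collagens detected in 1 line ran between 8 and 25 with a median of 20 in HCC lines, between 11 and 18 with a median of 15 in lung lines, and between 8 and 17 with a median of 16 in pancreas lines. The ranges of the 3 groups overlapped. These counts are out of 40 listed collagens in HCC lines and 43 in the other lines. Of all genes, 24.9% to 35.1% were detected in HCC lines and 40.8% to 43.7% in lung and pancreas lines. SNU-739 had the most, 25, of which 9 were fibrillar, and PLC/PRF/5 and AsPC-1 the fewest, 8 each.

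**Figure D1:**
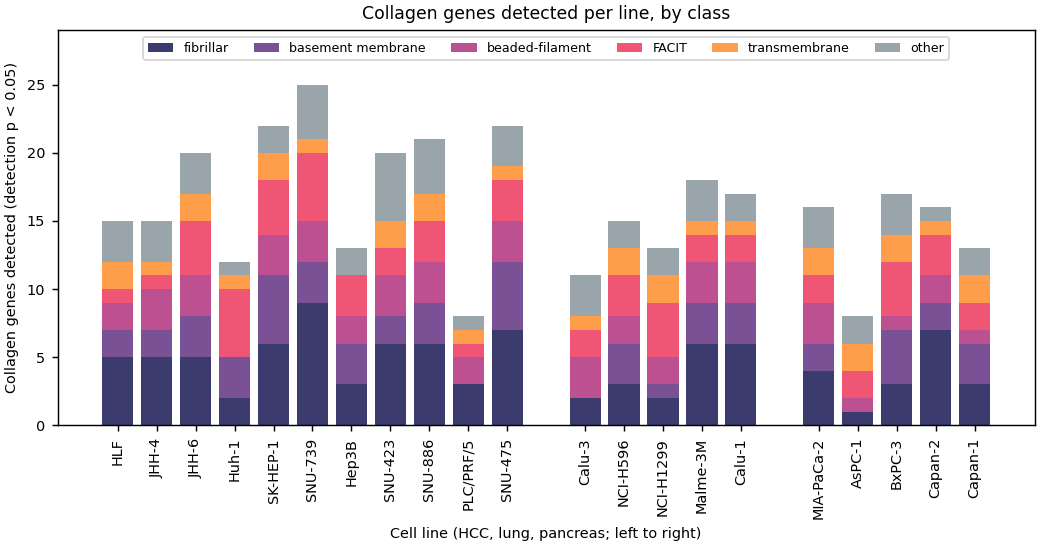
Number of collagen genes detected (detection p under 0.05) in each of 21 lines, HCC, lung and pancreas in turn, 1 stacked bar per line coloured by class. Bars run between 8 and 25 in HCC lines, 11 and 18 in lung lines and 8 and 17 in pancreas lines, and 9 of the 25 genes in SNU-739 are fibrillar.

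Collagen levels varied widely from line to line. Over the 10 HCC lines of the common raw table, the 29 collagens detected in at least 3 of them had a median SD of 1.64 on the log2 scale, and all 15050 genes detected that often had a median SD of 0.77. Over the 10 lung and pancreas lines, 21 collagens had a median SD of 1.53, and all 16950 genes a median SD of 0.58. The range between the highest and lowest line passed 4 log2 units for 18 of 29 collagens in HCC lines, against 22.6% of all genes, and for 13 of 21 in lung and pancreas lines, against 13.5% of all genes. Without Hep3B the HCC medians were 1.60 for 28 collagens and 0.57 for all genes, and 17 of 28 collagens passed 4 log2 units, against 10.6% of all genes.

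**Figure D2:**
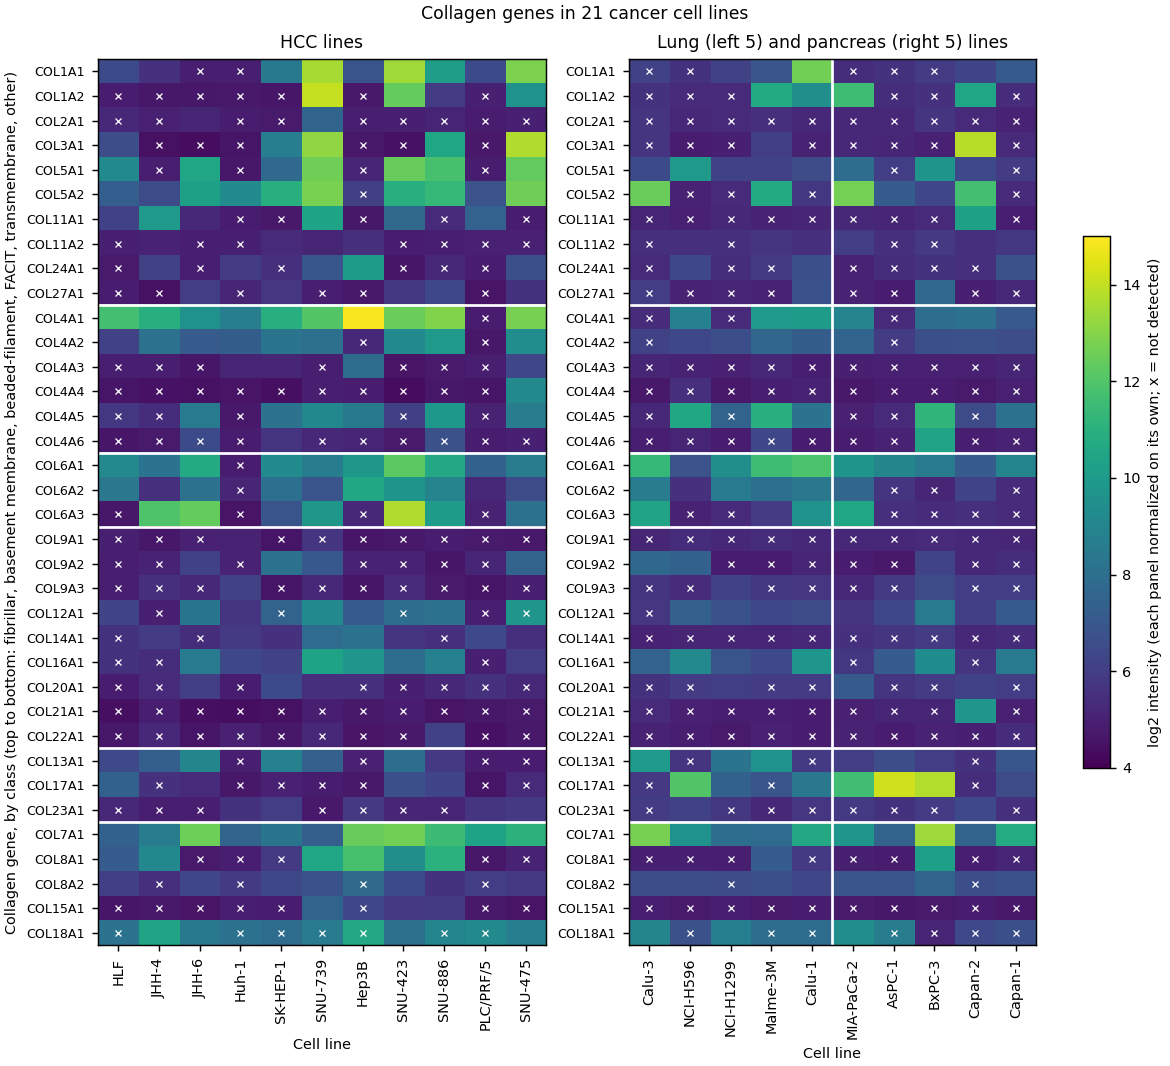
Heat map of log2 intensity of the 36 collagen genes detected in at least 1 line, by class, in HCC lines (left panel) and in lung and pancreas lines (right panel, split by a white line). A cross marks a gene not detected in that line, and each panel was normalized on its own. COL4A1 is bright in 10 of 11 HCC lines and COL1A1, COL1A2 and COL3A1 in a few lines each.

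Among the fibrillar genes, those of type I, the main collagen of bone and scar, were far higher in a few lines of each set than in the others. COL1A1, which encodes the alpha 1 chain of type I, was detected in 9 of 11 HCC lines, with a lowest level of 4.91 in Huh-1, a median of 6.85 and a highest level of 13.55 in SNU-739. SNU-423 followed with 13.45, SNU-475 with 12.81 and SNU-886 with 10.15. Those 4 lines stood above SK-HEP-1, the next, at 8.45. In lung lines COL1A1 was at 6.11 in Calu-3, 5.61 in NCI-H596, 6.13 in NCI-H1299, 6.91 in Malme-3M and 12.66 in Calu-1, and in pancreas lines at 5.46 in MIA-PaCa-2, 5.61 in AsPC-1, 5.96 in BxPC-3, 6.32 in Capan-2 and 7.14 in Capan-1. Calu-1 alone stood far above the other 9 lines.

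COL1A2 encodes the alpha 2 chain of type I. It was detected in the same 4 HCC lines as led in COL1A1, with a lowest level of 4.66 in SK-HEP-1, a median of 4.85 and a highest level of 14.04 in SNU-739. SNU-423 had 12.39, SNU-475 9.60 and SNU-886 5.92. In the other set COL1A2 was at 5.61 in Calu-3, 5.35 in NCI-H596, 5.32 in NCI-H1299, 10.74 in Malme-3M and 9.44 in Calu-1 for lung, and at 11.57 in MIA-PaCa-2, 5.44 in AsPC-1, 5.58 in BxPC-3, 10.47 in Capan-2 and 5.39 in Capan-1 for pancreas. The 4 lines above 9 were spread evenly over lung and pancreas, and the groups overlapped.

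Both chains of type I were thus detected together in 4 of 11 HCC lines, 2 of 5 lung lines (Malme-3M and Calu-1) and 1 of 5 pancreas lines (Capan-2). COL1A1 was detected without COL1A2 in 5 HCC lines, in NCI-H1299 and in Capan-1. MIA-PaCa-2 was the only line with COL1A2 and without COL1A1 detected. Over the 10 HCC lines of the common table the levels of both chains correlated with r = 0.90 (rank correlation 0.61). Over the 10 lung and pancreas lines r was 0.26 (rank correlation 0.03). The lines of a set share an array design and a normalization. With SNU-739 and SNU-423 left out, the HCC value was 0.74 over 8 lines, with a rank correlation of 0.24. Among those lines COL1A2 was detected in SNU-886 only.

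COL3A1, the chain of type III collagen in distensible tissues, was detected in 5 HCC lines, with a lowest level of 4.38 in JHH-6, a median of 4.74 and a highest level of 13.69 in SNU-475. SNU-739 had 13.17 and SNU-886 10.45. SNU-423, which was high for both chains of type I, had 4.53 and was not detected. In lung lines COL3A1 was at 5.65 in Calu-3, 4.88 in NCI-H596, 4.96 in NCI-H1299, 6.03 in Malme-3M and 5.08 in Calu-1. In pancreas lines it was at 5.22 in MIA-PaCa-2, 5.18 in AsPC-1, 5.01 in BxPC-3, 13.84 in Capan-2 and 5.32 in Capan-1. Capan-2, in which KRT8, KRT18 and KRT19 were not detected, was the only high line of that set.

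Type V collagen regulates the diameter of type I fibrils. COL5A1 was detected in 7 HCC lines, with a lowest level of 4.71 in Huh-1, a median of 9.26 and a highest level of 12.60 in SNU-739. COL5A2 was detected in 10 HCC lines, with a lowest level of 6.08 in Hep3B, a median of 10.23 and a highest level of 12.78 in SNU-739. In these lines the chains correlated with r = 0.79 (rank correlation 0.77, n = 10).

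In lung lines COL5A1 was at 6.48 in Calu-3, 9.95 in NCI-H596, 6.18 in NCI-H1299, 6.13 in Malme-3M and 6.53 in Calu-1. In pancreas lines it was at 7.92 in MIA-PaCa-2, 6.03 in AsPC-1, 9.69 in BxPC-3, 6.41 in Capan-2 and 5.90 in Capan-1. NCI-H596 and BxPC-3 were the high lines, 1 in each group. COL5A2 was at 12.48 in Calu-3, 5.04 in NCI-H596, 5.31 in NCI-H1299, 10.72 in Malme-3M and 5.80 in Calu-1 for lung, and at 12.71 in MIA-PaCa-2, 7.22 in AsPC-1, 6.33 in BxPC-3, 11.71 in Capan-2 and 5.30 in Capan-1 for pancreas. Its 4 high lines were not those of COL5A1, and r between the chains was -0.20 (rank correlation 0.02, n = 10). Without NCI-H596 and BxPC-3 r was 0.57.

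**Figure D3:**
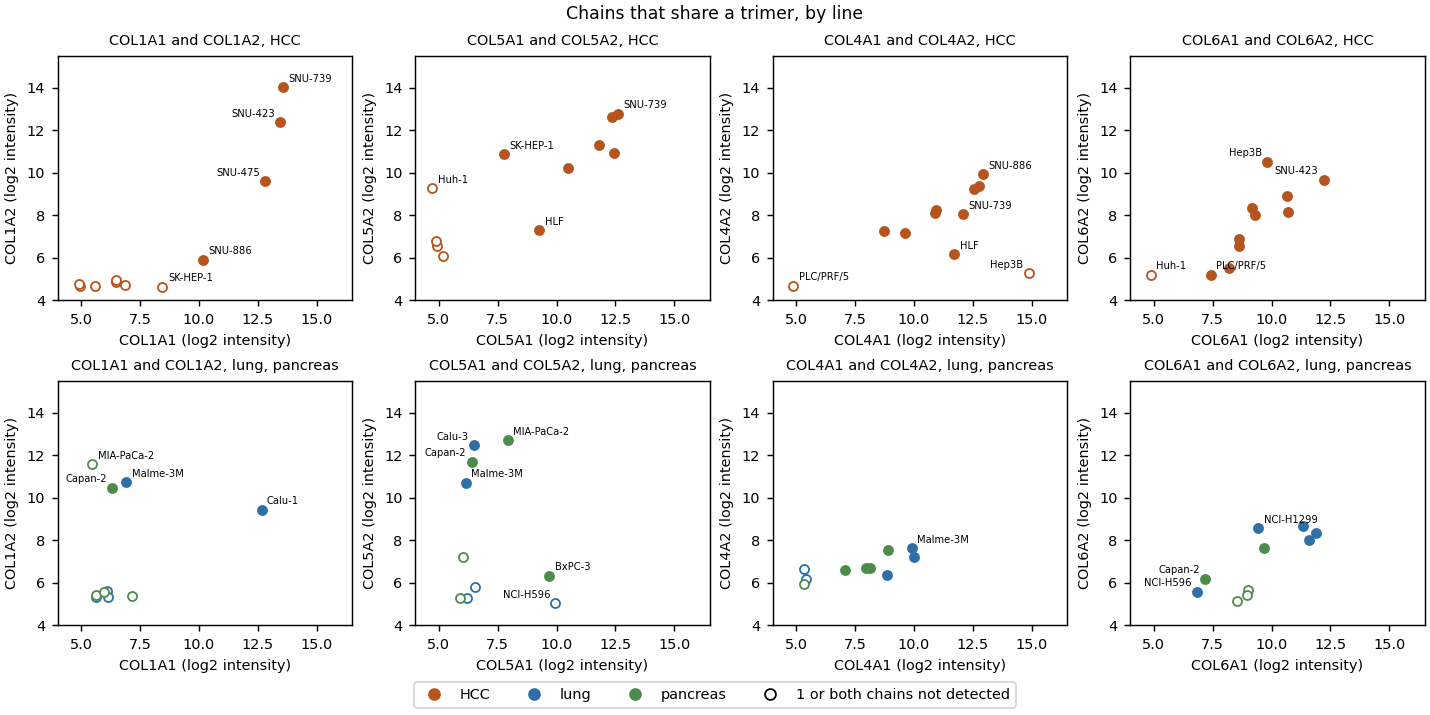
Log2 intensity of 4 pairs of chains that share a trimer, 1 point per line with some lines named, in HCC lines (top row) and in lung and pancreas lines (bottom row). Open points are lines in which 1 or both chains were not detected. The COL1A1 and COL1A2 panel shows 4 HCC lines with both chains detected, and the COL4A1 and COL4A2 panel shows Hep3B at 14.88 for COL4A1 and 5.28 for COL4A2.

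COL11A1, COL24A1 and COL21A1 are mentioned because of isolated high lines and were chosen after their values were seen. COL11A1, a minor fibrillar chain of cartilage, reached 10.40 in SNU-739, 9.91 in JHH-4 and, in the other set, 10.28 in Capan-2, the only lung or pancreas line with it detected. COL24A1, another fibrillar chain, reached 10.09 in Hep3B. COL21A1, a FACIT gene, was detected in Capan-2 only, at 9.72.

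Mesenchymal markers were detected in HCC lines of high and of low fibrillar collagen. Of 8 such markers, 7 were detected in SNU-739 and SNU-475, 6 in SNU-423 and 5 in SNU-886, and 5 to 6 in each of the other 7 HCC lines. Huh-1 and PLC/PRF/5, where all 8 hepatocyte markers were detected, had COL1A1 at 4.91 and 6.48 and COL5A1 at 4.71 and 4.86. COL5A2 was detected in both, at 9.29 and 6.82. Low levels were not particular to these lines: JHH-4 had COL5A1 at 4.90 and JHH-6 had COL1A1 at 4.94. The part of these markers in collagen levels was not tested.

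Of the basement membrane genes, COL4A1 and COL4A2 were detected in most lines. Their chains make up the type IV network found in nearly all basement membranes. COL4A1 was detected in 10 of 11 HCC lines, with a lowest level of 4.87 in PLC/PRF/5, a median of 11.72 and a highest level of 14.88 in Hep3B. COL4A2 was detected in 9, with a lowest level of 4.69 in PLC/PRF/5, a median of 8.07 and a highest level of 9.94 in SNU-886. PLC/PRF/5 lacked detection of both, and Hep3B, highest for COL4A1, had COL4A2 at 5.28 and not detected.

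In lung lines COL4A1 was at 5.39 in Calu-3, 8.85 in NCI-H596, 5.31 in NCI-H1299, 9.89 in Malme-3M and 10.02 in Calu-1, and in pancreas lines at 8.90 in MIA-PaCa-2, 5.34 in AsPC-1, 7.96 in BxPC-3, 8.12 in Capan-2 and 7.06 in Capan-1. COL4A2 was at 6.19 in Calu-3, 6.36 in NCI-H596, 6.63 in NCI-H1299, 7.62 in Malme-3M and 7.24 in Calu-1 for lung, and at 7.55 in MIA-PaCa-2, 5.97 in AsPC-1, 6.68 in BxPC-3, 6.72 in Capan-2 and 6.61 in Capan-1 for pancreas. Lung and pancreas overlapped for both genes. The partners, whose shared upstream stretch is printed above, correlated with r = 0.77 over these 10 lines (rank correlation 0.75). Over the 10 HCC lines r was 0.40 (rank correlation 0.37), and without Hep3B it was 0.82 over 9 lines.

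COL4A3, whose chain is known from the basement membranes of kidney, lung and eye, was detected in 4 HCC lines, with a lowest level of 4.57 in SNU-423, a median of 4.93 and a highest level of 7.89 in Hep3B. Its levels in lung and pancreas lines lay between 4.94 and 5.26, with detection in 0 of 10. Its partner COL4A4, named after its values were seen, was detected in SNU-475 only, at 9.27. SNU-475 was thus the only line with both chains detected.

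COL4A5, mutated in X-linked Alport syndrome, was detected in 6 HCC lines, with a lowest level of 4.75 in Huh-1, a median of 8.19 and a highest level of 9.87 in SNU-886. It was at 5.25 in Calu-3, 10.53 in NCI-H596, 7.50 in NCI-H1299, 10.98 in Malme-3M and 8.19 in Calu-1 for lung, and at 5.02 in MIA-PaCa-2, 5.32 in AsPC-1, 11.22 in BxPC-3, 6.56 in Capan-2 and 8.13 in Capan-1 for pancreas. The groups overlapped, each with lines at background. COL4A6, its head-to-head partner, was also named after its values were seen. It was detected in SK-HEP-1 at 5.63 and in BxPC-3 at 10.41 and in no other line. SNU-886 at 6.72 and JHH-6 at 6.46 stood above SK-HEP-1 without passing the detection threshold.

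The beaded-filament genes COL6A1, COL6A2 and COL6A3 encode the 3 chains of the common type VI trimer. COL6A1 was detected in 10 HCC lines, with a lowest level of 4.88 in Huh-1, a median of 9.18 and a highest level of 12.23 in SNU-423. COL6A2 was detected in the same 10, with a lowest level of 5.20 in Huh-1, a median of 8.0 and a highest level of 10.53 in Hep3B. COL6A3 was detected in 7, with a lowest level of 4.58 in Huh-1, a median of 8.16 and a highest level of 13.70 in SNU-423. Huh-1 was thus the only HCC line with 0 of 3 chains detected. All 3 were detected in 7 of 11 HCC lines, and HLF, Hep3B and PLC/PRF/5 lacked COL6A3.

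In lung lines COL6A1 was at 11.33 in Calu-3, 6.82 in NCI-H596, 9.44 in NCI-H1299, 11.58 in Malme-3M and 11.88 in Calu-1, and in pancreas lines at 9.69 in MIA-PaCa-2, 9.02 in AsPC-1, 8.52 in BxPC-3, 7.19 in Capan-2 and 8.96 in Capan-1. It was detected in all 10. COL6A2 was at 8.66 in Calu-3, 5.58 in NCI-H596, 8.57 in NCI-H1299, 8.03 in Malme-3M and 8.34 in Calu-1 for lung, and at 7.62 in MIA-PaCa-2, 5.65 in AsPC-1, 5.16 in BxPC-3, 6.19 in Capan-2 and 5.40 in Capan-1 for pancreas. It was detected in 5 of 5 lung lines and in 2 of 5 pancreas lines, MIA-PaCa-2 and Capan-2. Of the lung lines, 4 lay above every pancreas line, and NCI-H596 lay among the pancreas lines.

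COL6A3 was at 10.41 in Calu-3, 5.05 in NCI-H596, 5.35 in NCI-H1299, 5.92 in Malme-3M and 9.63 in Calu-1 for lung, and at 10.51 in MIA-PaCa-2, 5.52 in AsPC-1, 5.41 in BxPC-3, 5.47 in Capan-2 and 5.35 in Capan-1 for pancreas. MIA-PaCa-2 was the only pancreas line with all 3 chains detected, against Calu-3, Malme-3M and Calu-1 in lung. COL6A1 and COL6A2 correlated with r = 0.82 over 10 HCC lines (rank correlation 0.85) and 0.76 over the lung and pancreas lines (rank correlation 0.73). Both genes neighbour each other on chromosome 21.

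Of the FACIT genes, COL12A1, whose product coats type I fibrils, was detected in 6 HCC lines, with a lowest level of 4.94 in PLC/PRF/5, a median of 7.50 and a highest level of 9.72 in SNU-475. In SNU-475 and SNU-423 its level stood above the median detected gene of the array although its detection p-value missed the threshold. It was at 5.74 in Calu-3, 7.36 in NCI-H596, 6.78 in NCI-H1299, 6.37 in Malme-3M and 6.53 in Calu-1 for lung, and at 5.69 in MIA-PaCa-2, 6.39 in AsPC-1, 8.51 in BxPC-3, 6.04 in Capan-2 and 7.11 in Capan-1 for pancreas. Its correlation with COL1A1 was 0.68 over 10 HCC lines (rank correlation 0.54) and -0.03 over lung and pancreas lines (rank correlation 0.15).

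COL16A1, a FACIT chain of skin and smooth muscle, was detected in 8 HCC lines, with a lowest level of 4.98 in PLC/PRF/5, a median of 6.40 and a highest level of 10.37 in SNU-739. It was at 7.46 in Calu-3, 9.18 in NCI-H596, 6.85 in NCI-H1299, 6.43 in Malme-3M and 9.77 in Calu-1 for lung, and at 5.80 in MIA-PaCa-2, 7.16 in AsPC-1, 9.35 in BxPC-3, 5.71 in Capan-2 and 8.48 in Capan-1 for pancreas. All 5 lung lines and 3 of 5 pancreas lines had it detected, and the levels overlapped. COL9A2, a cartilage chain, was detected in 4 HCC lines and in Calu-3, NCI-H596 and BxPC-3, with highest levels of 8.09 in SK-HEP-1 and 7.71 in Calu-3. COL20A1 stayed between 4.86 and 6.46 in HCC lines and between 5.62 and 7.12 in the other lines.

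Of the transmembrane genes, COL17A1 had the widest range in lung and pancreas lines. Its product, BP180, anchors epithelial cells in hemidesmosomes. It was at 5.83 in Calu-3, 12.0 in NCI-H596, 7.41 in NCI-H1299, 6.90 in Malme-3M and 8.41 in Calu-1 for lung, and at 11.62 in MIA-PaCa-2, 14.19 in AsPC-1, 13.71 in BxPC-3, 5.42 in Capan-2 and 6.55 in Capan-1 for pancreas. Calu-3, Malme-3M and Capan-2 were the 3 lines without detection, although the level in Malme-3M stood above that in Capan-1, where the gene was detected. In HCC lines COL17A1 was detected in 4, with a lowest level of 4.63 in PLC/PRF/5, a median of 5.32 and a highest level of 7.42 in HLF.

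COL13A1, a transmembrane collagen of cell adhesion sites, was at 9.95 in Calu-3, 5.64 in NCI-H596, 8.25 in NCI-H1299, 9.65 in Malme-3M and 5.87 in Calu-1 for lung, and at 6.0 in MIA-PaCa-2, 6.59 in AsPC-1, 6.02 in BxPC-3, 5.59 in Capan-2 and 6.95 in Capan-1 for pancreas. In lung, 3 lines lay above all pancreas lines and the other 2 within them. In HCC lines it was detected in 7, with a lowest level of 4.82 in SNU-475, a median of 6.44 and a highest level of 9.03 in JHH-6. COL23A1 stayed between 4.74 and 5.99 in HCC lines and between 5.28 and 6.41 in the other lines.

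Of the remaining collagens, COL7A1, the anchoring fibril collagen of stratified epithelia, was detected in all 21 lines. In HCC lines its lowest level was 7.33 in SNU-739, its median 10.38 and its highest level 12.66 in SNU-423. It was at 12.75 in Calu-3, 9.60 in NCI-H596, 7.96 in NCI-H1299, 7.85 in Malme-3M and 10.64 in Calu-1 for lung, and at 9.74 in MIA-PaCa-2, 7.51 in AsPC-1, 13.40 in BxPC-3, 7.52 in Capan-2 and 10.78 in Capan-1 for pancreas. Both groups held lines near 8 and lines above 12.

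COL8A1, a short-chain collagen of vessel walls, was detected in 6 HCC lines, with a lowest level of 4.70 in PLC/PRF/5, a median of 7.22 and a highest level of 11.80 in Hep3B, and elsewhere in Malme-3M at 7.21 and BxPC-3 at 10.21 only. COL8A2 varied less, between 5.46 and 7.81 in HCC lines and between 6.33 and 7.54 in the other lines. COL15A1, a basement membrane zone collagen, was detected in SNU-739, SNU-886 and SNU-423 and in 0 of 10 lung and pancreas lines.

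COL18A1, whose C-terminal fragment is endostatin, lay between 7.88 and 10.65 in HCC lines with a median of 8.53. It was detected in 4 of these lines, and in 6 others it stood above the median detected gene of the array without passing the detection threshold. It was at 9.01 in Calu-3, 6.72 in NCI-H596, 8.75 in NCI-H1299, 7.95 in Malme-3M and 7.88 in Calu-1 for lung, and at 9.39 in MIA-PaCa-2, 8.60 in AsPC-1, 5.13 in BxPC-3, 6.43 in Capan-2 and 6.67 in Capan-1 for pancreas. Only Calu-3, NCI-H1299 and MIA-PaCa-2 had it detected.

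Lung and pancreas lines were compared within their shared array design, with limma and Benjamini-Hochberg adjustment over all 16950 genes detected in at least 3 of the 10 lines. No collagen passed an adjusted p of 0.05 among the 21 tested. Over all genes 1 passed, or 0.0059%, and at an unadjusted p under 0.05 the counts were 1 collagen and 617 genes. No collagen had lung and pancreas lines that did not overlap, against 0.619% of all genes. The median difference, lung minus pancreas, was 0.28 on the log2 scale over the collagens and 0.00 over all genes, and 12 of 21 were positive. The count was also 0 without Capan-2, Calu-3 and Malme-3M.

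COL6A2 had the lowest unadjusted p. It averaged 7.84 ± 1.28 in lung lines and 6.0 ± 0.98 in pancreas lines (SD, n = 5 each), a difference of 1.83 ± 0.66 (SE; limma, adjusted p = 0.9998). The chain it pairs with, COL6A1, averaged 10.21 ± 2.12 in lung lines and 8.68 ± 0.93 in pancreas lines, with a difference of 1.53 ± 0.93. COL13A1 differed by 1.64 ± 0.85 and COL8A2 by -0.38 ± 0.21, each lung minus pancreas with its SE. For each of these 4 genes limma gave an adjusted p of 0.9998, and the differences could not be separated from the spread between lines. With Capan-2, Calu-3 and Malme-3M left out they were 1.54 for COL6A2, 0.33 for COL6A1, 0.20 for COL13A1 and -0.52 for COL8A2. Single lines also moved them: COL6A1 differed by 2.38 without NCI-H596, and COL8A2 by -0.23 without BxPC-3.

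**Figure D4:**
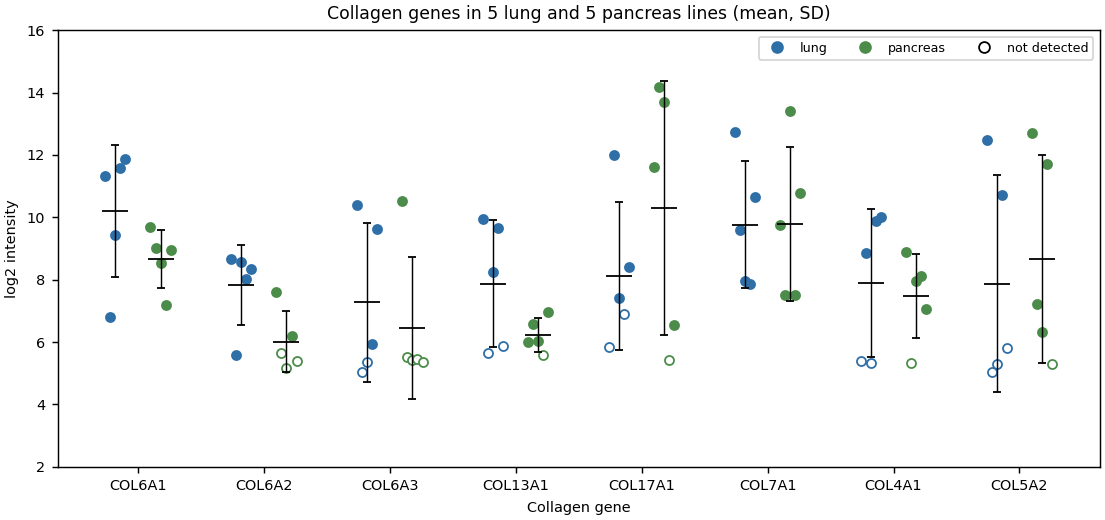
Log2 intensity of 8 collagen genes in 5 lung lines (blue, left of each pair) and 5 pancreas lines (green, right), with mean and SD, and open points where the gene was not detected. Lung and pancreas lines overlap for each gene shown, and COL6A2 has 4 lung lines above the highest pancreas line at 7.62.

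For the HCC comparison the average of the lung and pancreas means was subtracted from the HCC mean after all 21 lines were normalized together on 28338 shared symbols. The levels in this comparison are on that joint scale. Among 30 collagens tested, 4 were higher in HCC lines at a limma adjusted p of 0.05, COL4A1, COL4A2, COL14A1 and COL18A1, and 1 was lower, COL17A1. Over all 17849 genes 19% passed, 6.78% higher and 12.2% lower in HCC lines, so the share of collagens passing, 16.7%, was near that background. At an unadjusted p under 0.05 the counts were 10 collagens and 5744 genes. Positive differences were found for 26 of 30 collagens and for 8660 of 17849 genes, with medians of 0.87 and -0.02. COL4A3, COL14A1 and COL15A1 were detected in no lung or pancreas line and entered the test through HCC lines alone. A positive difference was thus favoured in advance for them, and the count is a description only. By class, 2 of 4 basement membrane genes, 1 of 6 FACIT genes and 1 of 5 others were higher, 1 of 3 transmembrane genes was lower, and 0 of 9 fibrillar and 0 of 3 beaded-filament genes passed. Each of these differences is also one between array designs.

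COL4A1 was at 5.12 in the lowest HCC line, PLC/PRF/5, 12.15 at the median and 15.13 in the highest, Hep3B. It was at 5.19 in Calu-3, 8.40 in NCI-H596, 5.11 in NCI-H1299, 9.51 in Malme-3M and 9.62 in Calu-1, and at 8.51 in MIA-PaCa-2, 5.14 in AsPC-1, 7.54 in BxPC-3, 7.73 in Capan-2 and 6.67 in Capan-1. All HCC lines except PLC/PRF/5 and Huh-1, at 9.20, lay above every lung and pancreas line. The mean was 11.49 ± 2.66 in HCC lines (SD, n = 11), 7.57 ± 2.26 in lung lines and 7.12 ± 1.29 in pancreas lines (n = 5 each). The difference was 4.15 ± 0.95 (SE), or 17.7-fold (limma, adjusted p = 0.00389).

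COL4A2 was at 4.87 in PLC/PRF/5, 8.58 at the median and 10.41 in SNU-886. It was at 5.88 in Calu-3, 6.01 in NCI-H596, 6.27 in NCI-H1299, 7.22 in Malme-3M and 6.85 in Calu-1, and at 7.18 in MIA-PaCa-2, 5.67 in AsPC-1, 6.29 in BxPC-3, 6.36 in Capan-2 and 6.24 in Capan-1. PLC/PRF/5 lay below every lung and pancreas line, Hep3B and HLF within their range, and the other 8 HCC lines above it. The difference was 1.68 ± 0.55 (limma, adjusted p = 0.0380). It did not pass when both sets were normalized apart (limma, adjusted p = 0.199).

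COL14A1, a FACIT chain of fibril-rich tissue, was at 5.80 in SNU-886, 6.10 at the median and 8.70 in Hep3B. In lung lines it was between 4.88 and 5.06 and in pancreas lines between 5.05 and 5.65. Detection was found in 8 of 11 HCC lines and in 0 of 10 others. HLF, JHH-6 and SNU-886, the lowest HCC line, lacked detection, each with a detection p-value of 0.05. SNU-475, whose detection p-values are given to more digits, counted as detected with a detection p-value of 0.0487. On the joint scale, which spans both array designs, HCC and other lines did not overlap. This held for 3.2% of all genes, and COL14A1 was the only such collagen. The measured levels were higher in HCC lines (limma, adjusted p = 0.00431), and the gene entered the test through detection in HCC lines alone. Against the detection limit of the other lines COL14A1 was at least 2.45-fold higher in HCC lines, a bound that was not itself tested.

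COL18A1 was at 8.38 in SK-HEP-1, 9.03 at the median and 11.10 in Hep3B. It was at 8.62 in Calu-3, 6.33 in NCI-H596, 8.35 in NCI-H1299, 7.54 in Malme-3M and 7.49 in Calu-1, and at 9.0 in MIA-PaCa-2, 8.19 in AsPC-1, 4.96 in BxPC-3, 6.08 in Capan-2 and 6.29 in Capan-1. MIA-PaCa-2 and Calu-3 lay within the HCC range. The difference was 2.04 ± 0.47 (limma, adjusted p = 0.00356), with detection in 4 of 11 HCC lines and 3 of 10 others.

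COL17A1, the hemidesmosome collagen, was at 4.80 in PLC/PRF/5, 5.60 at the median and 7.92 in HLF. It was at 5.56 in Calu-3, 11.61 in NCI-H596, 7.03 in NCI-H1299, 6.53 in Malme-3M and 8.02 in Calu-1, and at 11.26 in MIA-PaCa-2, 13.89 in AsPC-1, 13.35 in BxPC-3, 5.20 in Capan-2 and 6.18 in Capan-1. NCI-H596, Calu-1, MIA-PaCa-2, AsPC-1 and BxPC-3 lay above every HCC line and the other 5 within the HCC range. The difference was -3.05 ± 0.96 (limma, adjusted p = 0.0297). The call was lost without any 1 of NCI-H596, MIA-PaCa-2, AsPC-1 or BxPC-3, with limma adjusted p-values of 0.0532 to 0.0605.

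**Figure D5:**
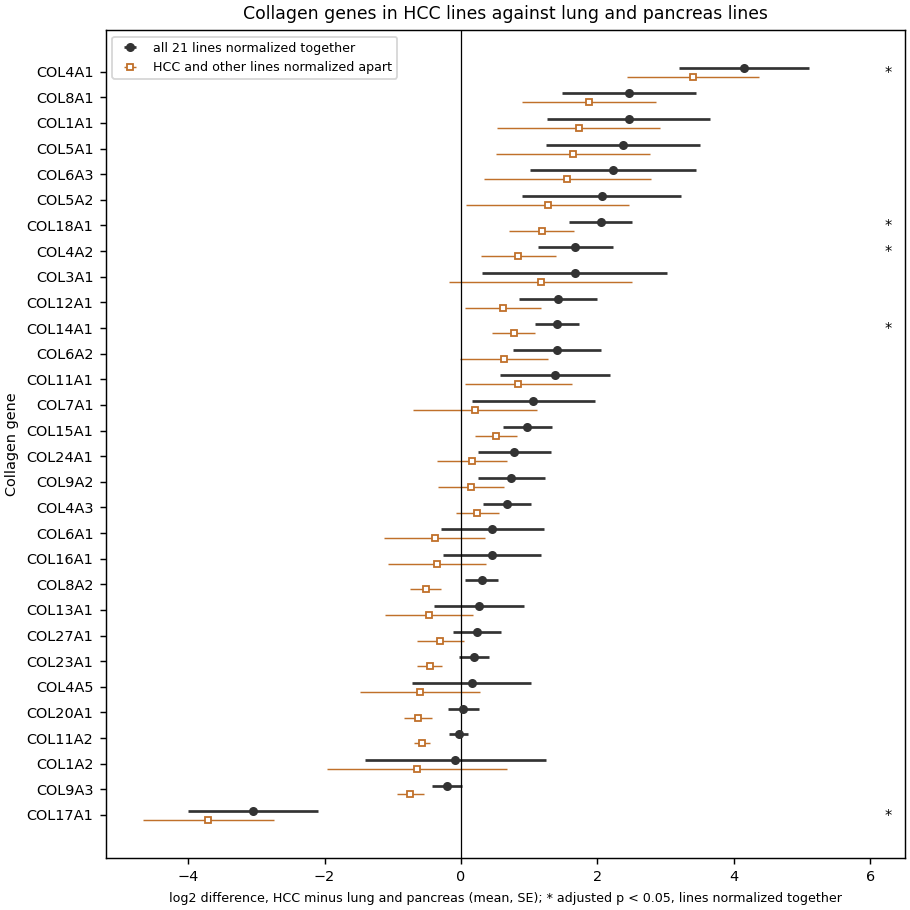
Log2 difference, HCC minus lung and pancreas lines, with SE, for 30 collagen genes, with all 21 lines normalized together (filled) and with both sets normalized apart (open). Stars mark adjusted p under 0.05 with the lines normalized together, and the values normalized apart are lower for all genes shown.

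Normalizing the 2 sets apart moved the median of all genes to -0.78 and left 2.89% of all calls higher in HCC lines, against 35.7% with the sets normalized together. COL4A1, COL14A1 and COL18A1 were also higher then (limma, adjusted p = 0.00620, 0.0431 and 0.0433), and relative to the median of all genes COL4A1 differed by 4.18 and COL18A1 by 1.96. The difference of COL17A1 was -3.70 on that scale and -2.92 relative to the median. COL11A2, COL20A1, COL23A1 and COL9A3 were called lower there, and the differences of these 4 relative to the median of all genes were between 0.04 and 0.32. Without Calu-3, Malme-3M, Capan-2 and Hep3B, the same 5 collagens passed on the joint scale, and the fibrillar gene COL5A2 was higher as a sixth. The differences were then 3.78 for COL4A1, 1.93 for COL4A2, 1.90 for COL18A1 and -4.13 for COL17A1.

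Several collagens of positive difference did not pass. COL8A1 differed by 2.46 ± 0.99 (limma, adjusted p = 0.0870), COL1A1 by 2.46 ± 1.19 (limma, adjusted p = 0.159), COL12A1 by 1.41 ± 0.57 (limma, adjusted p = 0.0896) and COL6A2 by 1.40 ± 0.64 (limma, adjusted p = 0.136). COL15A1, with detection in 3 HCC lines and in 0 of 10 others, missed the threshold as well (limma, adjusted p = 0.0632). For COL1A1 the SD over HCC lines was 3.43, larger than the difference itself.

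Markers of other cell types passed this comparison at shares of 25% in each of the 3 lists below, against 19% of all genes. The summed level of 8 mesenchymal markers was 57.2 to 79.2 in HCC lines, 48.8 to 64.9 in lung lines and 48.9 to 73.0 in pancreas lines, and CDH2 and ZEB1 were higher in HCC lines (2 of 8 at a limma adjusted p of 0.05). Of these markers, THY1 was detected in 0 lung lines and FBN1 in 0 pancreas lines. The summed level of 8 epithelial markers was 50.4 to 70.2 in HCC lines, 51.1 to 87.1 in lung lines and 49.9 to 88.6 in pancreas lines, and CLDN4 and ESRP1 were lower (2 of 8), with ESRP1 and GRHL2 detected in 0 HCC lines. For 7 endothelial markers the sums were 37.9 to 49.9, 35.2 to 41.4 and 35.9 to 41.8, and of the 4 tested PECAM1 was higher. CDH5 was not detected in any HCC line. In SNU-475 5 of the 7 endothelial markers were detected (PECAM1, VWF, TEK, TIE1 and ESAM), and in each of the other HCC lines 1 to 3. The part of these markers in the collagen differences was not tested.

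Enzymes that act on collagen chains were read against the share of all genes passing the same comparison, 19%, with 6.78% higher and 12.2% lower in HCC lines. In the list of chain modification and folding genes, 2 of 16 tested (12.5%) were higher in HCC lines and 0 lower: the proline 4-hydroxylase subunit P4HA2 by 1.38 ± 0.30 (limma, adjusted p = 0.00251) and the proline 3-hydroxylase P3H2 by 2.62 ± 0.80 (limma, adjusted p = 0.0248). Among the trimming and cross-linking genes, LOX, which oxidizes lysines for cross-links, was higher by 2.69 ± 0.88 (limma, adjusted p = 0.0365), as 1 of 9 (11.1%), and 0 were lower. Of 7 collagen receptors, including the integrin ITGB1 and the kinases DDR1 and DDR2, 0 passed. Between lung and pancreas lines 0 of 15, 0 of 7 and 0 of 5 genes of these lists passed.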

How the data were processed

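Total RNA of 21 cell lines was read on Illumina BeadChip arrays, 1 array per line. The authors used BeadStudio (version not given), per the submitters' processing notes. Per the file headers, the deposited raw tables give for each gene an intensity, averaged over beads and not normalized between arrays, and a detection p-value against negative controls; how probes were summarised is not stated. The authors also deposited processed intensity values with unstated normalization, used as an alternative. No genome build is named for the arrays. Background was corrected with limma 3.58.1 (R 4.3.3) by the normal-exponential model, with control mean and SD taken from the signals observed at detection p-values between 0.05 and 0.95, an offset of 16 was added, and values were quantile normalized and taken to log2. Listed names were updated through a RefSeq table (GRCh38.p14), which renamed 1783 HCC and 1980 lung and pancreas genes, and the brightest listed name of a gene was kept. Of 43 collagens, 31 had a promoter window in RefSeq. Genes detected (p under 0.05) in at least 3 lines were tested in limma (lmFit, eBayes), and an adjusted p (Benjamini-Hochberg) under 0.05 of any fold was called.

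Lines are the replicates; nothing in the labels says that they were cultured side by side, and the number of arrays limits the precision. A gene detected on no line of the lower side has only a bound, its fold set against each array's lowest detected signal or the gene's own value, whichever is higher. Named members are COL1A1, COL4A1, COL6A2, those passing a comparison, and up to 4 per class with the largest SD over lines in each set. Members and lists were chosen with earlier results of these data known. Python 3.11.15 with pandas 2.3.3 served for sequences. Alternatives changed background, offset, scaling, filter, input values and lines, and scripts were tested on simulated data.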

Additional observations from a re-analysis of the deposited data

Results flagged for a closer look

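In 7 of 44 groups of 5 lines examined, 1 line lay far from the nearest other. The gap there filled more of the range than Dixon's critical value of 0.71. For genes chosen without regard to spread, chance passes that value in about 1 group of 20. The genes examined were named members, most of them chosen for a large SD over lines, so the 7 of 44 cannot be set against that rate. Values are log2 intensities with the lung and pancreas lines normalized together, and HCC lines were too many for this test. COL1A1, a type I chain, was at 12.66 in Calu-1 and next at 6.91 among lung lines. COL5A1, a type V chain, was at 9.95 in NCI-H596 and next at 6.53. COL6A2, a type VI chain, was low in NCI-H596 at 5.58, and the next lung line had 8.03. COL6A3, another type VI chain, was at 10.51 in MIA-PaCa-2 and next at 5.52 among pancreas lines. COL3A1, the type III chain, was at 13.84 in Capan-2 and next at 5.32. COL8A1 was at 10.21 in BxPC-3 and next at 5.16, and its partner COL8A2 was at 7.54 in the same line and next at 6.89. Each of the 7 genes was detected in the line named, and the cause was not tested.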

How the results depend on the processing

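For lung against pancreas lines, 0 collagens passed under every alternative run, including each line left out. For HCC against lung and pancreas lines, 5 passed. The count was 3 of 18 tested with detection p under 0.01 required in at least 5 lines, 8 with both sets normalized apart (3 higher, 5 lower), 7 with the deposited processed values (2 higher, 5 lower, against 4 higher and 1 lower), and 3 to 6 with 1 line left out, with 3 without NCI-H596 or AsPC-1. The share of all calls that were higher in HCC lines was 35.7%, against 29.8% with median scaling, 2.97% with the deposited processed values and 2.89% normalized apart, where the median of all genes lay at -0.19, -0.51 and -0.78. All calls numbered 3391, against 1716 with the stricter detection filter, 10231 with processed values and 9543 normalized apart. COL4A1 passed in all 30 alternatives. COL4A2 did not pass with median scaling (limma adjusted p = 0.0548), with processed values (0.160), normalized apart (0.199) or in 13 of 21 fits without 1 line. COL18A1 (0.0771) and COL14A1 (0.0635) did not pass with processed values. At detection p under 0.01 the median number of collagens detected per line was 11 in HCC, 9 in lung and 9 in pancreas lines. The correlation of COL8A1 with COL8A2 in HCC lines was 0.39, and -0.021 without Hep3B and -0.072 without the 2 farthest lines. With the 2 farthest lines left out, the lung and pancreas correlations of COL5A1 with COL5A2 and of COL12A1 with COL1A1 were 0.57 and 0.31. The causes were not tested. No paired analysis was possible because each line was read once and the labels carry no replicate numbers. Protein features were not run, since no protein table was used here. Detection limits low genes: the raw signal at percentile 95 lay at 4.77 times the control mean in Hep3B, against 10.1 to 43.3 times in the other lines.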
